A study of Mus musculus with 4 samples.

Results

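The 10 genes described here build the MHC class I pathway of the mouse, by which cells display peptides from their own proteins to CD8+ T cells and natural killer cells. They were matched by gene symbol among the 22173 genes listed in the files, and all 10 were found with values. They are the heavy chains H2-K1, H2-D1 and H2-T23, the shared light chain B2m, the peptide transporter Tap1 and Tap2, the loading factor Tapbp, the immunoproteasome subunits Psmb8 and Psmb9, and the transcriptional activator Nlrc5. Polyadenylated RNA of C57BL/6 mouse hippocampus was sequenced in 4 samples. The treatment was (+)-Sodium L-ascorbate, the sodium salt of ascorbic acid, in 2 samples and PBS, phosphate-buffered saline, in the other 2, and the series states 30 days of treatment. All samples carry the same C57BL/6 genotype, and the series title speaks of middle-aged mice and of CD8+ T cells, while an age, sex, dose and route are not given in the labels. Since no label ties samples of a group to different animals, the p-values below rest on a spread between samples that may be technical.

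As background, the immunoproteasome cuts proteins into peptides, the Tap1 and Tap2 transporter pumps these into the endoplasmic reticulum, and tapasin (Tapbp) loads them onto a heavy chain paired with beta-2-microglobulin (B2m). Interferons raise these genes together in many cell types. Nlrc5 does so by joining factors that sit on the X and Y boxes of class I promoters. In brain, endothelial cells and microglia carry class I, and class I proteins in hippocampal neurons are known for limiting synapse number and plasticity.

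Promoter stretches are shown because the same control elements recur in several of these genes. Windows of 250 bases before to 50 bases after the annotated start were taken from RefSeq, build GRCm38.p6, for 8 of the 10 genes. The stretches end at the base before the start and are written 5′ to 3′ on the gene's strand. Capitals mark, on either strand, GGGGA followed directly by TTCCCC (the kappa-B element of class I genes), GAA and GAAA with any 2 or any 3 bases between them (forms of the interferon response element), TGACG (core of the X2 box) and CCAAT (the Y box). The bases between GAA and GAAA stay in lower case unless another match covers them, and the 2 interferon element matches of B2m overlap each other.
H2-K1 (chr17:34000348-34000527, minus strand): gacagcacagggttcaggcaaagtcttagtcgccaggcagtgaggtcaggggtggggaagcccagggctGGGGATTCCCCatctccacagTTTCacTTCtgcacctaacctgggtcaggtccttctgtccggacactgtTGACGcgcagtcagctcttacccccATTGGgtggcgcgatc
H2-D1 (chr17:35262914-35263093, plus strand): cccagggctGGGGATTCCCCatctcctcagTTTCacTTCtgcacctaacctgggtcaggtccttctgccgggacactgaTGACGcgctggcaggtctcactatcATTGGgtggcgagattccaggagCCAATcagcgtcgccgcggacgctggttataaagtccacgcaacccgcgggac
B2m (chr2:122147507-122147686, plus strand): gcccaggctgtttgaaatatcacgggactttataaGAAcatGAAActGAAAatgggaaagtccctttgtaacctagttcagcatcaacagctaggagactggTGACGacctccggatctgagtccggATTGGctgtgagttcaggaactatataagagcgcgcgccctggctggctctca
H2-T23 (chr17:36032702-36032881, minus strand): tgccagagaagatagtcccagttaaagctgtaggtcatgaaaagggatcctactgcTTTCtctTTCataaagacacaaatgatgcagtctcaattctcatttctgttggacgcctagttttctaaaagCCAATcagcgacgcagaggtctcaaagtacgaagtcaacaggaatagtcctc

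In H2-K1, H2-D1 and B2m the X2 core is followed by a Y box on the opposite strand (ATTGG) with exactly 20 bases between them, a layout that was chosen for the search after these windows had been read. It occurred in 31 of 32851 promoter windows (0.0944%). In H2-K1 the first base of the X2 core lies at -41 from the start, in H2-D1 at -101 and in B2m at -78. H2-K1 has a second annotated start nearby, from which the same X2 core lies at -55. The RefSeq span of H2-K1 reaches 34000619 on this minus strand, so both starts and the stretch shown lie inside it. Distances in H2-K1 are therefore not comparable with those in H2-D1 and B2m, whose stretches end at the edge of the span. The kappa-B element stood in H2-K1 and H2-D1 and in 0.0304% of all windows. The interferon element with 2 bases between stood in these same heavy chains and in 7.52% of windows, the form with 3 bases in B2m and H2-T23 and in 7.87%, TGACG in 5 of the 8 genes and 20.8% of windows, and CCAAT in 7 of the 8 and 37.4%. The window of Psmb8 held no match to these letters.

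In RefSeq Tap1 and Psmb9 are transcribed away from each other with 225 bases between their starts, though GENCODE M21 transcripts of them overlap. The stretch is shown because one sequence serves as promoter window of both genes, which encode parts of successive steps of the pathway. It is written on the strand of Tap1, with the start of Psmb9 to its left, and capitals again mark a CCAAT and a TGACG match.
Tap1 and Psmb9 (chr17:34187331-34187555, plus strand): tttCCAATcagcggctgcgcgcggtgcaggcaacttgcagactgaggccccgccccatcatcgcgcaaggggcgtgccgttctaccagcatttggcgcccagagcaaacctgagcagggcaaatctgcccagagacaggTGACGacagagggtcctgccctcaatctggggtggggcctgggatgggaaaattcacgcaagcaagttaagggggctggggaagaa

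**Figure D1:**
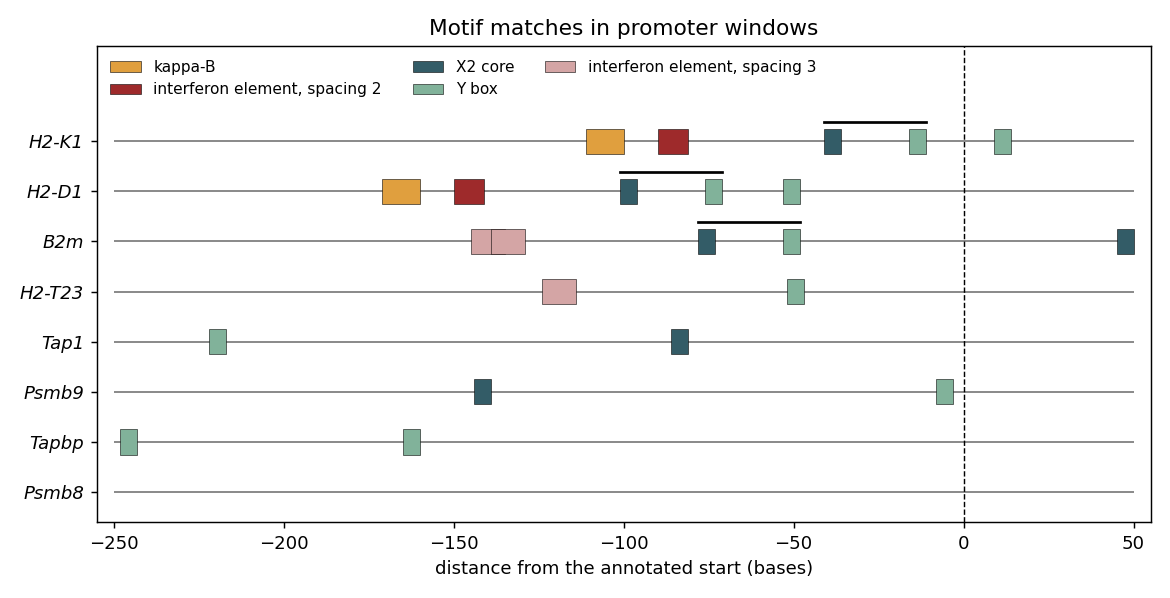
Motif matches in the promoter windows of 8 class I pathway genes, by distance in bases from the annotated start (dashed line), with colours for the motifs and a black bar over an X2 core and Y box 20 bases apart. H2-K1, H2-D1 and B2m carry the black bar, and H2-K1 and H2-D1 also carry the kappa-B element.

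The deposited unit is FPKM, a level per transcript length and library total, with sums of 386956 and 348133 in ascorbate samples 1 and 2 and 391142 and 372683 in PBS samples 1 and 2. The depth in reads is unknown, and no interval from counting is given. The samples also differed in markers of other tissues. Choroid plexus markers, all 18 of them measured, summed to 229 and 59.9 FPKM in ascorbate samples 1 and 2, against 9746 and 9023 FPKM in PBS samples 1 and 2. These markers split by group, so treatment and a difference in the tissue taken cannot be told apart for them. Thalamus markers followed the sample number instead, with 488 and 47.8 FPKM in the ascorbate samples and 399.6 and 58.1 FPKM in the PBS samples. The 8 neuronal markers were present in every sample, summing to 1645 and 2158 FPKM with ascorbate and 1599 and 1962 FPKM with PBS, and so were all 9 markers of the hippocampal fields, at 118 and 263 FPKM with ascorbate and 86.6 and 236 FPKM with PBS. Differences within a sample number are therefore given beside the pooled ones.

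All 10 class I genes had a lower mean with ascorbate than with PBS, by 22.1% to 56.7% of FPKM, beside 54.2% of all tested genes with a lower mean log2 value. That background was 42.6% after TPM scaling and 43.3% after median-of-ratios scaling. In 7 of the 10 genes the ascorbate samples were both under the lowest PBS sample, which held for 14.4% of all tested genes, and in 0 both were above the highest, which held for 8.65%. None passed the threshold, an adjusted p of 0.05 in limma-trend on log2(FPKM + 1), where 0 of 13372 tested genes were called in either direction (0.0%). Before adjustment 2 of the 9 tested members, H2-T23 and Tap2, had a p under 0.05, against 364 of all tested genes (2.72%) in this direction, and 0 members were on the higher side, against 13 genes (0.0972%). Nlrc5 was not tested, since its mean over the 4 samples was under 1 FPKM. The median log2 difference, ascorbate minus PBS, was -0.53 over the 9 tested members and -0.02 over all tested genes. Psmb9 averaged under 1 FPKM with ascorbate and entered the test only through its PBS values, and over all 10 members the median was -0.47. Among the tested members, leaving out ascorbate sample 2 gave a median of -0.26, and leaving out ascorbate sample 1 gave -0.77. The limma-trend p-values here and below come from a fit without the sample number. Samples of the same number deviated together (correlation 0.77, across genes), and a fit without the number counts this shared part as residual spread. With the number as a block, 485 of the 13372 tested genes passed. Among the 9 tested members 3 did so: H2-K1 (adjusted p = 0.00348 in limma-trend), H2-T23 (0.0132) and B2m (0.0369). The limits of the block fit are given in the closing section.

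The light chain B2m (gene ID 12010, chromosome 2, 122147687 to 122153082, GRCm38) is the invariant partner of every class I heavy chain. It had 107.5 and 75.9 FPKM in ascorbate samples 1 and 2, against 141 and 121 FPKM in PBS samples 1 and 2. Both ascorbate samples were below both PBS samples, with means of 91.7 ± 22.4 FPKM with ascorbate and 131 ± 14.4 FPKM with PBS (SD, n = 2 each). The log2 difference was -0.53 (SE 0.24, adjusted p = 0.9998 in limma-trend), with -0.39 within number 1 and -0.66 within number 2. It was -0.28 without ascorbate sample 2. B2m was the most abundant of the 10 genes in every sample and ranked 539 among 19388 genes with values. Its span overlaps Patl2, a gene at no more than 0.33 FPKM in any sample.

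The classical heavy chains H2-K1 and H2-D1, which present peptides to CD8+ T cells, differed in how far the groups stood apart. H2-K1 (gene ID 14972, chromosome 17, 33996012 to 34000619) had 19.7 and 9.58 FPKM in ascorbate samples 1 and 2, against 28.0 and 20.1 FPKM in PBS samples 1 and 2. The highest ascorbate sample lay just under the lowest PBS sample, so the groups did not overlap. The log2 difference was -0.74 (SE 0.39, adjusted p = 0.9998 in limma-trend), -0.49 within number 1 and -0.997 within number 2, and it was -0.26 without ascorbate sample 2. H2-D1 (gene ID 14964, chromosome 17, 35263094 to 35267497) had 31.7 and 14.1 FPKM with ascorbate, against 35.9 and 22.8 FPKM with PBS. Here the groups overlapped, because ascorbate sample 1 exceeded PBS sample 2. The log2 difference of -0.42 (SE 0.45), -0.18 within number 1 and -0.66 within number 2, turned to 0.14 without ascorbate sample 2. Transcripts of both genes share stretches of at least 200 bases at 95% identity or more with each other and with further heavy chain genes, so the split of reads between them is uncertain. Their sum, which does not depend on that split between the pair, was 51.4 and 23.7 FPKM with ascorbate and 63.9 and 43.0 FPKM with PBS, and it overlapped between groups.

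H2-T23 encodes Qa-1, a nonclassical heavy chain read by natural killer and T cell receptors of the CD94 family. It had 12.1 and 8.96 FPKM in ascorbate samples 1 and 2, against 16.7 and 15.9 FPKM in PBS samples 1 and 2, with no overlap. The PBS samples were close together, at 16.3 ± 0.55 FPKM, and the ascorbate samples averaged 10.5 ± 2.19 FPKM (SD, n = 2 each). The log2 difference was -0.60 (SE 0.19), with an unadjusted p of 0.0286 and an adjusted p of 0.9998 in limma-trend, and it was -0.44 within number 1 and -0.76 within number 2. H2-T23 (gene ID 15040, chromosome 17, 36029977 to 36032701) shares stretches with 9 other genes of the files, the longest being 1068 bases at 95.6% identity with H2-T-ps. That gene had 0.81 and 0.17 FPKM with ascorbate and 1.27 and 0.92 FPKM with PBS. H2-T22, another of the 9, had 15.0 and 10.6 FPKM with ascorbate and 15.0 and 11.0 FPKM with PBS. How reads were split among these genes is unknown, so the value of H2-T23 is uncertain.

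**Figure D2:**
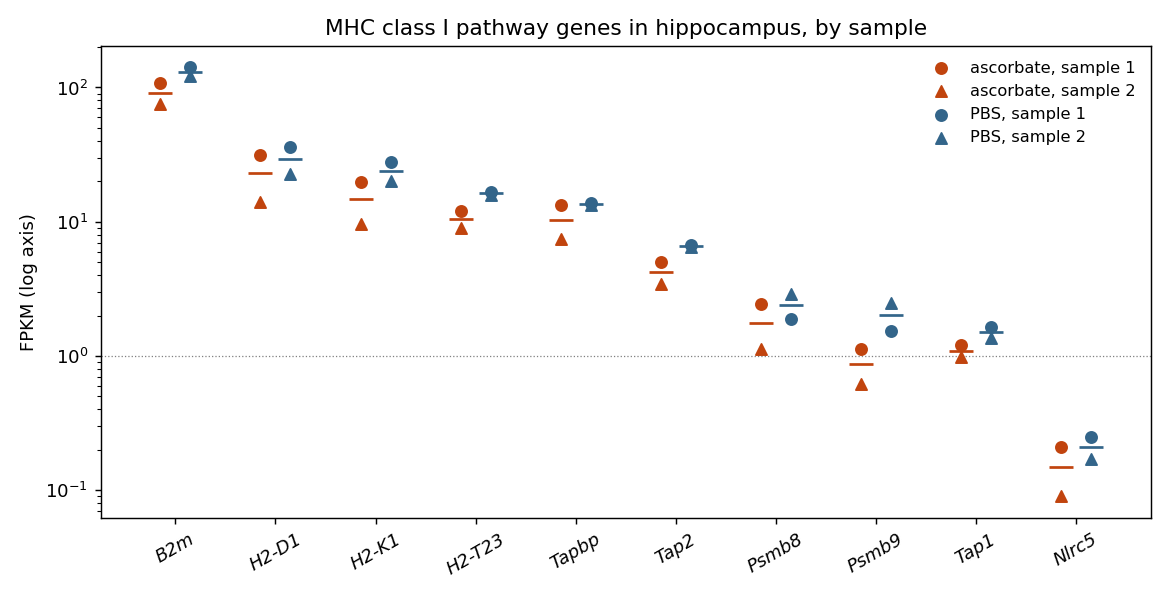
FPKM of the 10 class I pathway genes on a log axis, with ascorbate left of PBS for each gene, 1 point per sample and a horizontal line at each group mean. Ascorbate sample 2 (orange triangles) is the lowest of the 4 samples for every gene, and the groups overlap for H2-D1, Psmb8 and Nlrc5.

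Of the transporter genes, Tap2 (gene ID 21355, chromosome 17, 34204479 to 34216321) had 4.98 and 3.43 FPKM in ascorbate samples 1 and 2, against 6.66 and 6.50 FPKM in PBS samples 1 and 2. Both ascorbate samples were lower, and the log2 difference was -0.56 (SE 0.20), with an unadjusted p of 0.0479 and an adjusted p of 0.9998 in limma-trend. It was -0.36 within number 1, -0.76 within number 2 and -0.34 without ascorbate sample 2. Tap1 (gene ID 21354, chromosome 17, 34187556 to 34197225), the other chain of the same transporter, had 1.21 and 0.98 FPKM with ascorbate, against 1.64 and 1.36 FPKM with PBS. It was the one member whose differences within the numbers were nearly equal, at -0.26 within number 1 and -0.25 within number 2, and the pooled log2 difference was -0.25 (SE 0.21). Tapasin (Tapbp, gene ID 21356, chromosome 17, 33919478 to 33929290) had 13.2 and 7.49 FPKM with ascorbate, against 13.8 and 13.2 FPKM with PBS. Ascorbate sample 1 lay just below the PBS samples, at 13.21 FPKM against 13.24 FPKM in PBS sample 2. The log2 difference was -0.05 within number 1 and -0.75 within number 2, and the pooled value of -0.40 (SE 0.28) was -0.03 without ascorbate sample 2.

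The immunoproteasome subunits replace constitutive subunits of the proteasome and change which peptides it makes. Psmb9 (gene ID 16912, chromosome 17, 34182030 to 34187330) had 1.13 and 0.62 FPKM in ascorbate samples 1 and 2, against 1.54 and 2.50 FPKM in PBS samples 1 and 2, with no overlap. The means, 0.88 ± 0.36 FPKM with ascorbate and 2.02 ± 0.68 FPKM with PBS (SD, n = 2 each), differed by 56.7%, the largest relative difference of the 10 genes in these data. The log2 difference was -0.68 (SE 0.28, adjusted p = 0.9998 in limma-trend), with -0.25 within number 1 and -1.11 within number 2, and it was -0.45 without PBS sample 2. Psmb8 (gene ID 16913, chromosome 17, 34198195 to 34201454) had 2.42 and 1.12 FPKM with ascorbate, against 1.90 and 2.92 FPKM with PBS. These groups overlapped, and the log2 difference was 0.24 within number 1 and -0.89 within number 2. The pooled value of -0.32 (SE 0.33) was 0.02 without ascorbate sample 2. Psmb9 and Tap1 transcripts overlap by 212 identical bases in GENCODE M21, and the strand setting of the counting is not stated, so reads there cannot be told apart.

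Against the constitutive subunit that each replaces, the immunosubunits gave no uniform difference. Psmb9 stood at 1.24% and 1.01% of the FPKM of Psmb6 in ascorbate samples 1 and 2, against 1.68% and 3.19% in PBS samples 1 and 2. The groups did not overlap, and the exact permutation test gave a two-sided p of 0.333, the smallest that 2 against 2 samples allow. Psmb8 stood at 2.04% and 1.10% of Psmb5 with ascorbate, against 1.63% and 2.52% with PBS, which overlapped (exact permutation p = 0.667). Psmb10, the immunosubunit encoded outside the MHC, stood at 12.6% and 10.5% of Psmb7 with ascorbate and 10.9% and 12.1% with PBS (exact permutation p = 1.0). The constitutive genes had log2 differences of -0.08 for Psmb5, -0.18 for Psmb6 and -0.17 for Psmb7.

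Ratios between partners in the later steps overlapped between the groups. The sum of H2-K1 and H2-D1 was 47.8% and 31.2% of B2m in ascorbate samples 1 and 2, against 45.3% and 35.5% in PBS samples 1 and 2 (exact permutation p = 1.0). Tap1 stood at 24.3% and 28.6% of Tap2 with ascorbate, against 24.6% and 20.9% with PBS (exact permutation p = 0.667). With 2 samples a group these 5 ratios could not have passed 0.05 before or after adjustment for their number.

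Nlrc5 (gene ID 434341, chromosome 8, 94434335 to 94527272), the activator of class I genes, was the least abundant member. It had 0.21 and 0.09 FPKM in ascorbate samples 1 and 2, against 0.25 and 0.17 FPKM in PBS samples 1 and 2. The groups overlapped, and the precision of values this low is unknown. From highest to lowest mean FPKM over the 4 samples, a level per length, the genes ran B2m, H2-D1, H2-K1, H2-T23, Tapbp, Tap2, Psmb8, Psmb9, Tap1 and Nlrc5. Each neighbouring pair kept this order in 4 of 4 samples except H2-T23 over Tapbp, in 3, and Psmb9 over Tap1, in 1. Across samples, the ranges of neighbours did not overlap for B2m over H2-D1, Tapbp over Tap2, Tap2 over Psmb8 and Tap1 over Nlrc5, and they overlapped for the other neighbours.

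Ascorbate sample 2 was the lowest of the 4 samples for all 10 genes, where it was lowest for 41.0% of all tested genes as deposited, 26.6% after TPM scaling and 30.4% after median-of-ratios scaling. Within number 1, 9 of the 10 genes were lower with ascorbate, Psmb8 being higher, and within number 2 all 10 were lower. The median over the 9 tested members was -0.26 within number 1 and -0.76 within number 2, beside -0.02 and -0.03 over all tested genes. In 9 of the 10 genes the difference was larger within number 2, Tap1 being the exception. For this count, and for those within each number alone, the share of all tested genes was not computed. Lower values in both numbers were found for 8 of the 9 tested members and for 32.5% of all tested genes. Whether the difference depends on the number was not tested, since each number holds 1 sample per group. The same 7 genes stood apart between groups, and ascorbate sample 2 was lowest for all 10, after TPM or median-of-ratios scaling.

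**Figure D3:**
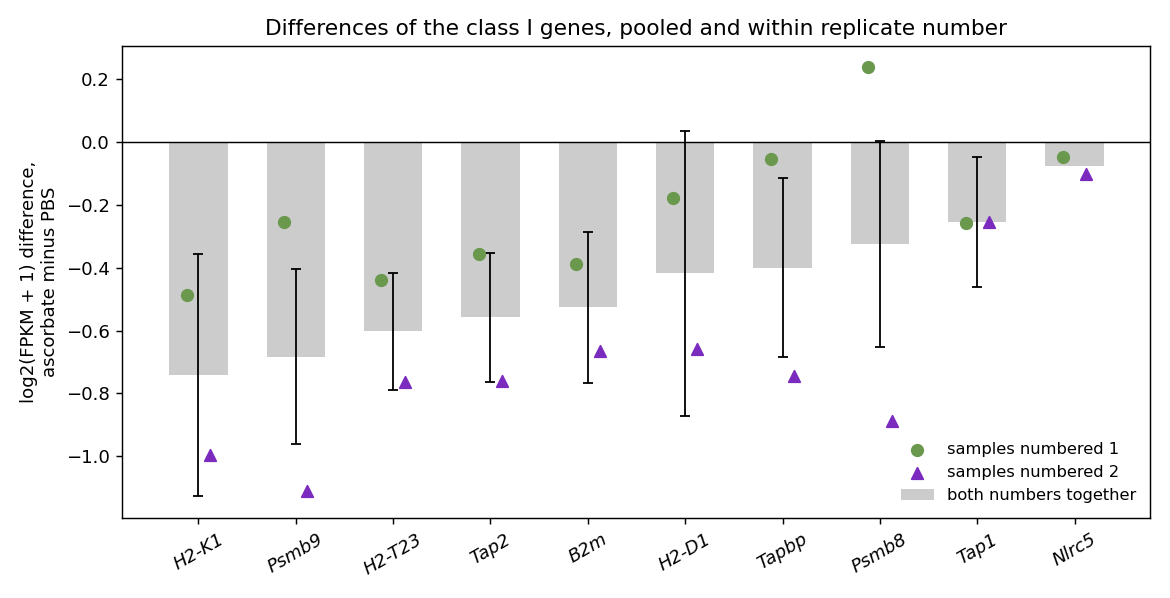
Difference in log2(FPKM + 1), ascorbate minus PBS, for the 10 genes, with bars for all 4 samples, error bars of 1 SE from limma-trend for the 9 tested genes, and points for samples with the same number. The point for samples numbered 2 lies below that for samples numbered 1 in all genes but Tap1, and Psmb8 is above 0 within number 1.

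Cell types that carry class I were compared in the same samples. The 11 microglia markers summed to 169 and 171 FPKM in ascorbate samples 1 and 2, against 183 and 168 FPKM in PBS samples 1 and 2, with 7 of 11 lower and a median log2 difference of -0.03. The 13 endothelial markers summed to 60.2 and 60.0 FPKM with ascorbate, against 91.3 and 88.0 FPKM with PBS, and all 13 were lower, by a median of -0.29. Single endothelial markers ran from -0.76 for Slco1a4 to -0.12 for Flt1. The sum is weighted to abundant ones such as Itm2a, Ly6c1 and Ly6a. Meningeal fibroblast markers, 15 in all, summed to 46.7 and 38.3 FPKM with ascorbate and 192 and 224 FPKM with PBS, and all 15 were lower. Ependymal markers, all 8 tested, summed to 75.1 and 4.18 FPKM with ascorbate and 76.3 and 36.2 FPKM with PBS, so that ascorbate sample 2 was the lowest here as well. It was also lowest in oligodendrocyte markers, 6 in all, at 3528 and 1563 FPKM with ascorbate and 3618 and 1924 FPKM with PBS. In both groups the sum of these oligodendrocyte markers was lower in sample 2 than in sample 1. The 9 markers of border-associated macrophages summed to 6.69 and 5.79 FPKM with ascorbate and 12.9 and 9.39 FPKM with PBS. The part of these cells, of the choroid plexus and of the thalamus in the class I differences was not tested, and in bulk tissue fewer cells of a type and less RNA per cell cannot be told apart.

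The receptors that read class I were listed at low FPKM, 10 of 11 of them under 1 FPKM in every sample. Cd8a, a chain of the CD8 coreceptor, had 0.33 and 0.37 FPKM in ascorbate samples 1 and 2, against 0.42 and 0.18 FPKM in PBS samples 1 and 2. Its partner Cd8b1 had 0.00 and 0.08 FPKM in either group, and the T cell receptor component Cd3e had 0.15 and 0.00 FPKM with ascorbate against 0.00 and 0.04 FPKM with PBS. The 12 T and natural killer cell markers with values summed to 1.55 and 1.31 FPKM with ascorbate and 1.57 and 1.54 FPKM with PBS, with Ncr1 listed at 0 in every sample. Pirb, a class I receptor described on mouse neurons, had 0.40 and 0.07 FPKM with ascorbate against 0.63 and 0.35 FPKM with PBS. No receptor gene reached the mean of 1 FPKM needed for testing.

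Other genes of the pathway came from lists that were chosen with earlier results of these data known. Of 13 further MHC class I heavy chain genes with values, 5 were tested, 0 passed and 4 were lower, with a median log2 difference of -0.03. Over all 13 the median was -0.05, with 10 lower and 3 higher. H2-Q4 had 2.32 and 1.84 FPKM in ascorbate samples 1 and 2, against 5.11 and 4.36 FPKM in PBS samples 1 and 2, a log2 difference of -0.90 (SE 0.19, adjusted p = 0.695 in limma-trend). It shares 509 bases at 96.9% identity with H2-Q6, whose log2 difference was -0.14. The nonclassical H2-T22, at 15.0 and 10.6 FPKM with ascorbate against 15.0 and 11.0 FPKM with PBS, had a log2 difference of -0.03, and H2-T24 one of -0.01. H2-M3, which presents formylated peptides and holds the same X2 and Y layout as H2-K1, had a log2 difference of 0.06. Levels of the further heavy chains named here were thus both well under and near those with PBS.

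The X2 and Y layout stood in the windows of 27 genes of any kind, of which 21 were tested. Besides H2-K1, H2-D1 and B2m these were 18, of which 10 were lower with ascorbate, beside 54.2% of all tested genes. Their median log2 difference was -0.01, beside -0.02 over all tested genes, so nothing particular to this layout is read from the count.

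Of 17 genes of the proteasome, peptide trimming and loading, all were tested, 0 passed and 15 were lower, with a median of -0.17. The endoplasmic reticulum aminopeptidase Erap1, which trims peptides to length, had 3.37 and 2.46 FPKM in ascorbate samples 1 and 2, against 5.13 and 3.73 FPKM in PBS samples 1 and 2, a log2 difference of -0.47 (SE 0.23). Erap1 overlaps Cast, so its value is uncertain. The chaperone Hspa5 and the disulfide isomerase Pdia3, a member of the peptide-loading complex, had log2 differences of -0.44 and -0.34. The chaperone Calr had 253 and 200.3 FPKM with ascorbate, against 235 and 277 FPKM with PBS, with overlapping groups.

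Upstream of the pathway, 21 of 23 genes of transcription and interferon signalling were tested, 0 passed and 13 were lower, with a median of -0.07. The interferon receptor chain Ifnar2 had 9.98 and 6.89 FPKM in ascorbate samples 1 and 2, against 12.6 and 14.0 FPKM in PBS samples 1 and 2, a log2 difference of -0.62 (SE 0.21). Irf1, a transcription factor that binds interferon response elements, had 3.24 and 3.83 FPKM with ascorbate, against 5.02 and 4.82 FPKM with PBS, a log2 difference of -0.39 (SE 0.16). Rfx5, Rfxap and Rfxank, the subunits of the complex on the X box, had log2 differences of -0.08, 0.04 and -0.08. Ifng was listed at no more than 0.05 FPKM in any sample.

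Of 6 class I-like molecules encoded outside the MHC, 4 were tested and 0 passed. Over all 6 the median log2 difference was -0.47, with 5 lower. Hfe, an iron regulator, had 3.55 and 3.43 FPKM in ascorbate samples 1 and 2, against 5.96 and 6.70 FPKM in PBS samples 1 and 2, a log2 difference of -0.71 (SE 0.15, adjusted p = 0.753 in limma-trend). Fcgrt, the neonatal Fc receptor, had 8.66 and 7.16 FPKM with ascorbate, against 13.1 and 13.7 FPKM with PBS, a log2 difference of -0.70 (SE 0.16, adjusted p = 0.793). Both pair with B2m, and the groups did not overlap for either gene, although Hfe transcripts share 397 bases at 95.2% identity with Elmod2.

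Beside these stood the related class II and interferon-stimulated genes. Of 12 class II genes 7 were tested, and 4 of the 7, H2-Aa, H2-Ab1, H2-Eb1 and H2-DMb1, averaged under 1 FPKM with ascorbate and entered the test only through their PBS values. Over all 12 the median log2 difference was -0.25, with 8 lower and 4 higher. H2-Aa, the alpha chain of I-A, had 0.63 and 0.16 FPKM in ascorbate samples 1 and 2, against 6.41 and 5.65 FPKM in PBS samples 1 and 2, a log2 difference of -2.35 (adjusted p = 0.168 in limma-trend). Its partner chain H2-Ab1 had 1.19 and 0.42 FPKM in ascorbate samples 1 and 2, against 3.58 and 2.71 FPKM in PBS samples 1 and 2, a log2 difference of -1.23 (SE 0.30). H2-DMb1, of the class II peptide exchange factor, had a log2 difference of -0.94. All 18 interferon-stimulated genes with values were lower, with a median of -0.48, and 13 of them were tested. Bst2, which tethers virions to the cell surface, had 1.46 and 1.88 FPKM with ascorbate against 10.4 and 8.94 FPKM with PBS (adjusted p = 0.159 in limma-trend). Ifitm3, an inhibitor of virus entry, had a log2 difference of -1.37 (SE 0.36), and Ifi27, which overlaps Ifi27l2a, one of -1.21. In each of these lists 0 genes passed, and whether they differ from the class I genes was not tested.

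**Figure D4:**
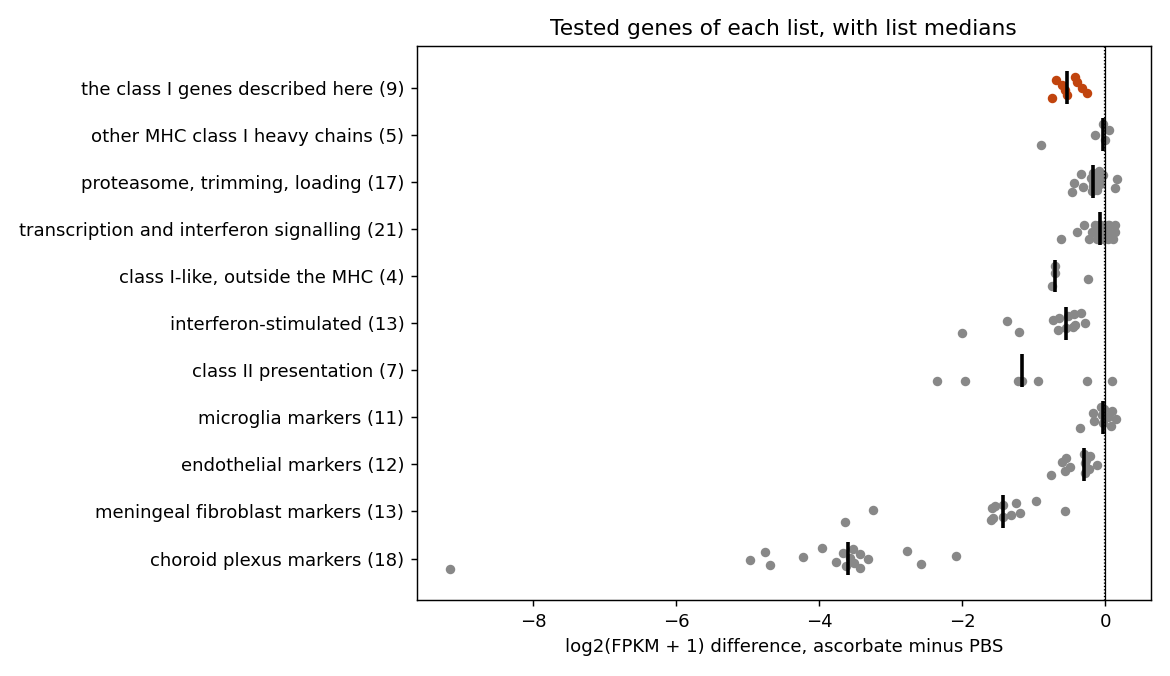
Log2(FPKM + 1) difference, ascorbate minus PBS, of each tested gene (points) in 11 lists, with the number tested in brackets, the list median as a black bar, a solid line at 0 and a dotted line at the median of all tested genes. The bars lie at -0.53 for the class I genes, -0.03 for other class I heavy chains and -3.59 for choroid plexus markers. The class II bar leaves out 5 genes under the filter and lies lower than the median of all 12 genes, -0.25. The class I-like bar, -0.70 for 4 tested genes, also lies lower than the median of all 6, -0.47. So do the interferon-stimulated bar, -0.54 for 13 tested genes against -0.48 for all 18, and the bar of the class I genes, against -0.47 for all 10.

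The tested genes outside these lists whose pattern was most like the mean of the 9 tested members were Isyna1, Bad, Dpm3, Tspan33 and Iqcd. Likeness was the root mean square distance between log2(FPKM + 1) centred on each gene's mean over the 4 samples, and it was 0.029 to 0.041 for these 5 genes. Isyna1, an enzyme of inositol synthesis, had 15.5 and 10.0 FPKM in ascorbate samples 1 and 2, against 18.8 and 16.8 FPKM in PBS samples 1 and 2. The nearest member to this mean was B2m, at a distance of 0.063, and 20 genes outside the lists were nearer than B2m.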

How the data were processed

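Each deposited file holds FPKM of 1 library to 2 decimals, per the file headers. The tools named in the submitters' processing notes are RSEM, HISAT2, Bowtie2 and DESeq2, and the build is GRCm38. Versions, roles, annotation and strand setting are not given in the sources used here. RNA was captured on oligo(dT) beads, per the labels' protocols. After a join on gene ID, 19388 of 22173 genes had values, and 99.2% of these matched RefSeq GRCm38.p6, which gave positions and promoters. Genes averaging 1 FPKM or more over the samples, 13372 in all, entered limma-trend (R 4.3.3 with limma 3.58.1) on the scale log2(FPKM + 1). The factor was the group, residual degrees of freedom were 2 and prior ones 2.33, with Benjamini-Hochberg adjustment over all tested genes and a threshold of 0.05. A log2 difference on this scale understates the change of low genes. Transcripts were compared with GENCODE M21 by BLAST+ 2.17.0 (at least 95% identity over 200 bases). The genes and lists were chosen with earlier results of these data known. All 10 members are named, and from each pathway list 2 to 4 genes with the smallest p, with H2-Q6, H2-T22, H2-T24, H2-M3, Calr and the Rfx genes named after their values were seen. Alternatives were other pseudocounts, filters, scalings and variance settings, a block for the replicate number, and leaving out each sample.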

Additional observations from a re-analysis of the deposited data

How the results depend on the processing

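No member passed the threshold under any alternative without the replicate number as a block: pseudocounts of 0.1 and 0.5, no filter, a minimum of 5 FPKM (6 members tested), quantile, TPM and median-of-ratios scaling, limma with robust variances or with no trend, and each sample left out. The smallest adjusted p of a member among these was 0.708. Over all genes the count was 0, or 1 after quantile normalization. With the replicate block in limma-trend 485 of 13372 tested genes passed, 453 of them lower. Among the 9 tested members 3 passed with the block, H2-K1 (adjusted p = 0.00348), H2-T23 (0.0132) and B2m (0.0369). Only 1 residual degree of freedom remains there, and what the number stands for is not in the labels. Same-numbered samples deviated together (correlation 0.77, across genes). Of 124 values of single members under 14 alternatives, 122 were negative. The filters, variance settings and block left each log2 difference as in the main fit. The other alternatives reuse the same samples, so this count is not independent evidence. With 1 sample left out, where the lone sample is assumed to vary like the others, the log2 difference of H2-D1 ran between -0.97 and 0.14 and that of Psmb8 between -0.67 and 0.0205, each positive without ascorbate sample 2. The median of the members ran between -0.77 and -0.26. Psmb10 over Psmb7 ran between -1.001 and 1.02 percentage points (0.011 with all samples) and H2-K1 plus H2-D1 over B2m between -9.21 and 7.35 points (-0.93 with all samples). The causes were not tested. Depth is unknown and limits the low genes, Nlrc5 most of all.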
